A study of Mus musculus with 6 samples.

Results

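The insulin-like growth factor (IGF) system of the liver was examined through 10 genes, the growth factors Igf1 and Igf2, the acid-labile subunit Igfals and the binding proteins Igfbp1 to Igfbp7. They were taken by symbol from a table of 24318 gene rows, and each symbol matched 1 row. RNA of whole liver was sequenced in 6 libraries from mice of C57BL/6 background that carried floxed alleles of Map3k7, the gene of the kinase TAK1, and the transgene VEcadCreERT2, a tamoxifen-inducible Cre driven by the promoter of VE-cadherin and so directed to endothelial cells (VEcadCreERT2/TAK1flox/flox). The 3 knockout libraries came from mice given tamoxifen, and the 3 control libraries came from untreated mice of the same genotype, so loss of TAK1 and exposure to tamoxifen cannot be told apart. The labels give no age, tamoxifen dose or time after treatment, and do not say whether each library is 1 animal. Knockout livers and control livers below stand for the libraries.

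IGF1 and IGF2 are secreted hormones that act through the receptor IGF1R. In adult rodents most circulating IGF1 comes from hepatocytes under the control of growth hormone, and nearly all of it travels bound to a binding protein, for the most part in a ternary complex of IGF1, IGFBP3 and the acid-labile subunit. The other binding proteins form smaller complexes, and IGFBP1 is the member that the liver adjusts from hour to hour, with insulin lowering its transcription and fasting, hypoxia and inflammatory or amino acid stress raising it. In whole tissue, fewer cells of a type and less RNA per cell cannot be told apart.

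Libraries of one group had rank correlations of 0.951 to 0.971, and libraries of different groups 0.868 to 0.91. Values are FPKM as deposited, fragment numbers scaled by transcript length and by a factor for each library. How that factor was set was not checked. Knockout was compared with control by limma over all 11842 genes that averaged 0.5 FPKM or more. Fold changes are on the log2(FPKM + 0.5) scale, on which those of scarce genes come out too small. A gene is said to have risen or fallen where its Benjamini-Hochberg adjusted p was under 0.05. Hepatocyte genes such as Apoa1 and Ttr were abundant in all libraries, and defining genes of adipocytes (Adipoq, Lep) and of exocrine pancreas (Cpa1, Pnlip, Ctrb1) were listed at 0 in all of them. Other markers of these cells were not at 0. The adipocyte genes Plin1 and Cfd reached 0.249 and 0.583 FPKM in control livers. The pancreas gene Cela1 measured 4.90 to 8.25 FPKM in knockout livers and 15.0 to 25.3 FPKM in control livers. Cela2a measured 1.86 to 4.27 FPKM in knockout livers and 0 to 0.592 FPKM in control livers. Alb, which encodes albumin, was left out because it was listed at 59068, 73306 and 55705 FPKM in knockout livers but at 0 in all 3 control livers, and a 0 in this kind of file can be a failed estimate. Map3k7 measured 9.28, 9.31 and 7.35 FPKM in knockout livers and 8.498, 9.02 and 9.14 FPKM in control livers (limma adjusted p = 0.868), a value that does not check the labels because other liver cells express the gene and transcripts lacking the floxed part may still be counted.

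Of the 10 genes, 9 reached the abundance needed for a test, and 1 of them rose while 5 fell. The number that fell was 2 without a mean-variance trend in the fit and 2 with the replicate number as a block. It was also 2 without knockout 1, knockout 3, control 1 or control 2. Igfbp1 was the gene that rose. Igfals, Igf1, Igfbp3, Igfbp4 and Igfbp5 fell, and Igfbp2, Igfbp6 and Igfbp7 did not pass the test. Over all tested genes, 27.0% were called, with 14.1% higher and 13% lower. The median log2 fold change was -0.51 over the 9 tested genes and -0.0007 over all genes tested. Groups did not overlap for 7 of the 9 (2 higher and 5 lower in knockout), where 43.5% of all tested genes had groups that did not overlap (22.4% higher and 21.1% lower).

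**Figure D1:**
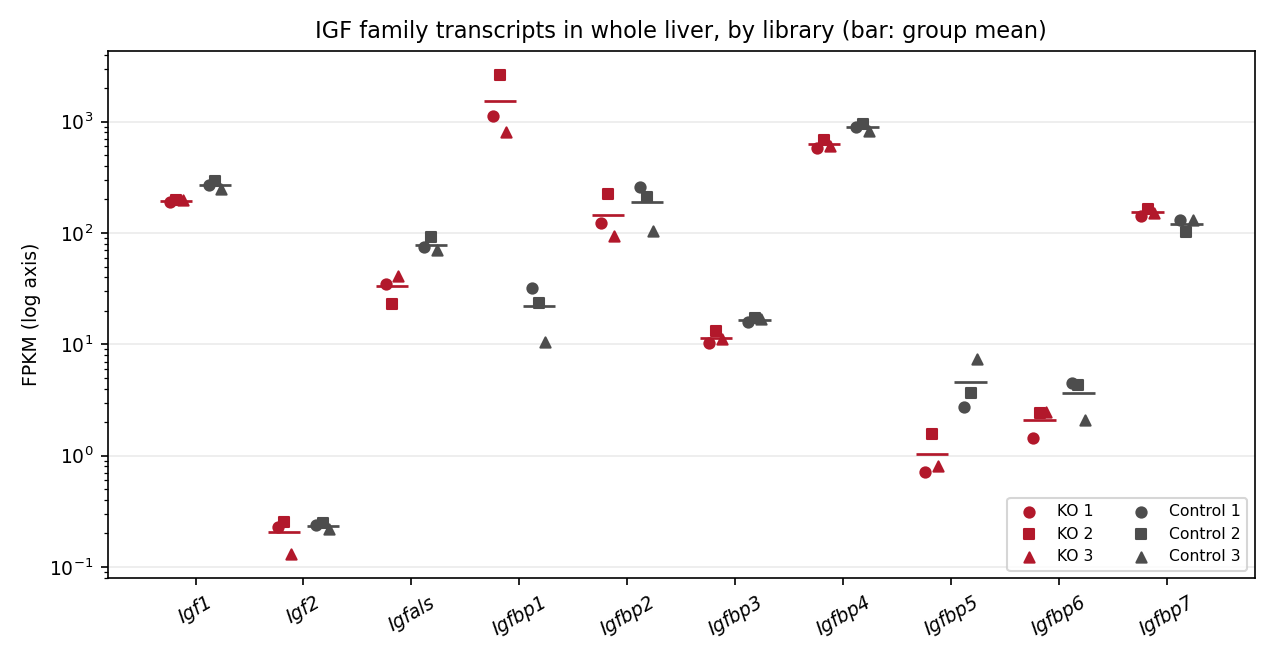
FPKM of each gene of the IGF family on a log axis, with 3 knockout libraries (red) left of 3 control libraries (grey) and a bar at the group mean. Igfbp1 lies between 808 and 2639.8 FPKM in knockout livers and between 10.4 and 32.2 FPKM in control livers, while Igf2 stays at or below 0.255 FPKM in every library.

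Igfbp1, the insulin-suppressed binding protein of hepatocytes, measured 1132, 2639.8 and 808 FPKM in knockout livers 1, 2 and 3. In control livers 1, 2 and 3 it measured 32.2, 23.7 and 10.4 FPKM. Every knockout library was far above every control library, and the lowest knockout value was 25.1 times the highest control value. The log2 fold change was 6.03 ± 0.47 (SE), with a 95% interval of 4.98 to 7.09 (limma adjusted p = 7.51e-05, n = 3 each), the rise ranked 5 among all 11842 tested genes. Knockout libraries also differed among themselves, the highest holding 3.27 times the lowest, and the control libraries did so to a like degree, at 3.09 times. Without knockout 2 the knockout mean was 970.0 FPKM, against 1527 FPKM with it, and the log2 fold change without any 1 library ran from 5.55 to 6.40, past the threshold each time. By mean level among the tested genes, Igfbp1 ranked 44 in knockout livers and 2320 in control livers.

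The Igfbp1 promoter is shown because it holds the insulin response element for which the gene is known, in which the DNA-binding sites of FOXO factors lie close to the transcription start. The window runs from 250 bases before to 50 bases after the start annotated by RefSeq (GRCm38.p6, chr11:7197537-7197836, plus strand). Capitals mark the matches to CAAAACA, the core of the insulin response element, at positions -108 to -102 from the start, and to the HNF1 site, which lies on the minus strand at positions -60 to -51.
Igfbp1: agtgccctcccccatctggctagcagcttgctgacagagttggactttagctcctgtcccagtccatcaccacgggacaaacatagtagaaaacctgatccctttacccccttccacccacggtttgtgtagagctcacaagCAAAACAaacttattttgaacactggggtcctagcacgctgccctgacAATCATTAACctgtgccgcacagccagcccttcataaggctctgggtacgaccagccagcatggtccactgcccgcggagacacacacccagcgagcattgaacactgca
Both strands were searched. CAAAACA occurred in 6.28% of the 32851 promoter windows of that length in the RefSeq table and the HNF1 site in 0.399% of them. Among the 16 windows of the 10 genes, Igfbp1 alone held either match. Of 11 motifs searched, the Igfbp1 window also held the loose NF-kB pattern, found in 50.8% of all windows, and the other 8 were not in these 300 bases. A match describes the letters only, and no binding was measured.

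The genes whose profile over the 6 libraries lay closest to that of Igfbp1 were the fatty acid receptor gene Ffar4, the macrophage lectin gene Chil3 and the neutrophil granule gene Ltf. The measure was the root mean square distance between log2 values after each gene was centred on its own mean, and it came to 0.68 for Ffar4, 0.69 for Chil3 and 0.75 for Ltf. Each of these 3 was listed at 0 in 1 control library, whereas Igfbp1 was above 10 FPKM in every control liver.

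The make-up of the binding protein RNA changed with Igfbp1. Igfbp1 supplied 56.8%, 70.8% and 48.2% of the summed FPKM of Igfbp1 to Igfbp7 in knockout livers 1, 2 and 3, and 2.40%, 1.81% and 0.942% in control livers 1, 2 and 3. FPKM is per transcript length, so this share stands for transcripts, not for reads or protein. The difference of 56.9 percentage points had an exact two-sided permutation p of 0.1, the smallest that 3 against 3 libraries can give. Igfbp1 is part of the sum, so this p follows from its own rise and is not separate evidence. In knockout livers Igfbp1 was the most abundant of the 7 in every library. In control livers it ranked 4, 4 and 5, and Igfbp4 led each time with 66.6% to 75.4% of the sum. Igfbp4 made up 18.4% to 36.4% in knockout livers, a share that the larger Igfbp1 part lowers by itself.

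The 7 binding proteins together summed to 1991, 3731 and 1678 FPKM in knockout livers and to 1338, 1311 and 1103 FPKM in control livers. The knockout mean was 1.97 times the control mean, with an exact permutation p of 0.1, and the difference of 1216 FPKM was 584 FPKM without knockout 2. With Igfbp1 taken out, the other 6 summed to 940.0 ± 131 FPKM in knockout livers (SD, n = 3). In control livers they summed to 1229 ± 118 FPKM (SD, n = 3). The ranges did not overlap but nearly met, at 1091 FPKM in knockout 2 and 1093 FPKM in control 3. The exact permutation p was 0.1. Igf1 transcripts were fewer per binding protein transcript, with a log2 ratio of Igf1 to the summed binding proteins of -3.57 ± 0.59 in knockout livers and -2.21 ± 0.09 in control livers (exact permutation p = 0.1). This sum includes Igfbp1. The knockout mean was 0.765 times the control mean for the other 6 together and 0.724 times for Igf1. The ratio of Igf1 to the other 6 alone was not tested.

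**Figure D2:**
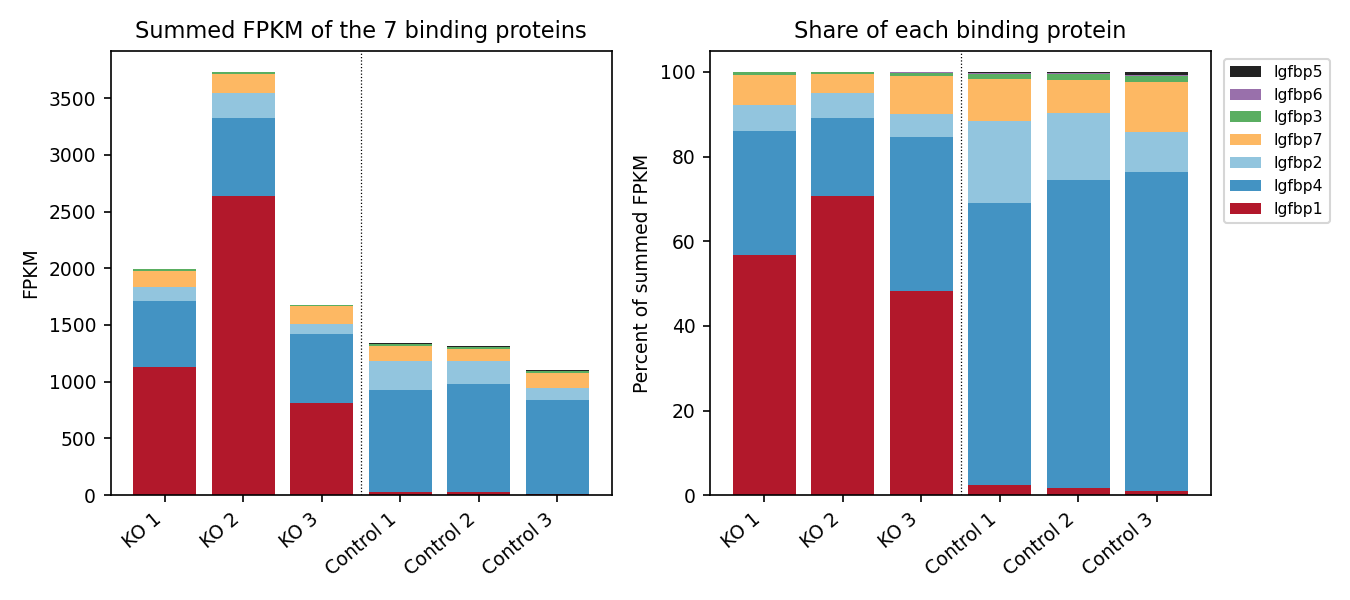
Stacked bars of the 7 binding protein genes in each library, knockout livers on the left of each panel and control livers on the right, as FPKM (left panel) and as percent of their sum (right panel). Igfbp1 fills 48.2% to 70.8% of the sum in knockout livers and 0.942% to 2.40% in control livers.

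Igf1, the growth factor itself, measured 189, 199.9 and 198 FPKM in knockout livers and 269, 296 and 246 FPKM in control livers. The groups did not overlap, and the knockout livers lay within a ratio of 1.06 of one another. Its log2 fold change was -0.46 ± 0.13 (limma adjusted p = 0.0272), a mean 27.6% lower in knockout livers. The call was lost without knockout 1, knockout 3, control 1 or control 2, with log2 fold changes of -0.39 to -0.47 and adjusted p of 0.0568 to 0.124, and without a mean-variance trend in the fit (adjusted p = 0.0708). The profiles nearest to that of Igf1 over the 6 libraries were those of the MAP kinase-interacting kinase gene Mknk2 and the proteasome ATPase gene Psmc1, each at a distance of 0.04, and of the glycosyltransferase gene Mgat4b at 0.05.

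Igfals encodes the protein that extends the lifetime of circulating IGF by closing the ternary complex, and it fell. It measured 35.2, 23.2 and 41.2 FPKM in knockout livers and 74.2, 91.7 and 69.7 FPKM in control livers. Each knockout library was below each control library, with knockout 2 the lowest of the 6. The log2 fold change was -1.26 ± 0.21 (limma adjusted p = 0.00277), and it ran from -1.03 to -1.43 without any 1 library with the call kept each time. The log2 ratio of Igfals to Igf1 was -2.60 ± 0.45 in knockout livers and -1.79 ± 0.09 in control livers, without overlap (exact permutation p = 0.1, the smallest possible), and the difference of -0.81 was -0.56 without knockout 2.

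Growth hormone acts on Igfals through STAT5, whose binding pattern TTCNNNGAA is spelled in capitals in the promoter window below, shown because it is the STAT5-type element near a start of this gene. RefSeq lists 3 starts for Igfals, and this is the window of the second in the table (GRCm38.p6, chr17:24877981-24878280, plus strand), with the match at positions -58 to -50.
Igfals: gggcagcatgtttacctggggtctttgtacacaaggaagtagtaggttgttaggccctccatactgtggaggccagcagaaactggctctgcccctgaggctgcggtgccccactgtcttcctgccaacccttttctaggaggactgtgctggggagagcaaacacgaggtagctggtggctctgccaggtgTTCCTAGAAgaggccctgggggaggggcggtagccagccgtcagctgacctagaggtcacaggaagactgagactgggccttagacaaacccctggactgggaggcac
A second match lay at positions -236 to -228 of the first window, and none in the third. The pattern, which reads the same on both strands, occurred in 8.30% of all promoter windows and in no window of the other 9 genes. This window of Igfals also holds GTAAACA, a FOXO site found in 3.65% of all windows, on the minus strand at positions -242 to -236.

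Igfbp3, the main carrier of circulating IGF, measured 10.3, 13.1 and 11.1 FPKM in knockout livers and 15.9, 17.3 and 16.8 FPKM in control livers. The groups did not overlap, and the log2 fold change was -0.53 ± 0.15 (limma adjusted p = 0.0304). Leaving out any 1 library but knockout 2 ended this call (-0.45 to -0.56 on the log2 scale, adjusted p of 0.0608 to 0.104), as did scaling to the same upper quartile (adjusted p = 0.0562) and a fit with no mean-variance trend (adjusted p = 0.0538). The log2 ratio of Igfals to Igfbp3 was 1.5 ± 0.58 in knockout livers and 2.23 ± 0.17 in control livers (exact permutation p = 0.1).

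Igfbp4, an inhibitory binding protein that the protease PAPP-A cleaves, was the most abundant of the family in control livers. It measured 580.3, 686 and 611 FPKM in knockout livers and 892, 952 and 832 FPKM in control livers. All knockout livers were lower, with a log2 fold change of -0.51 ± 0.14 (limma adjusted p = 0.0264). The call was lost without knockout 1, knockout 3, control 1 or control 2 (log2 fold changes of -0.46 to -0.51, adjusted p of 0.0672 to 0.115) and without a mean-variance trend (adjusted p = 0.054).

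Igfbp5, a matrix-associated member, fell at a low level. It measured 0.707, 1.58 and 0.803 FPKM in knockout livers and 2.74, 3.68 and 7.36 FPKM in control livers. The groups did not overlap, and control 3 was the highest of all 6. The log2 fold change was -1.67 ± 0.36 (limma adjusted p = 0.00853), and -1.31 to -1.95 without any 1 library, past the threshold each time.

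Igfbp2, a binding protein that hepatocytes also secrete, varied widely within both groups. It measured 124, 223 and 93.4 FPKM in knockout livers and 259.9, 209 and 105 FPKM in control livers. The groups overlapped, and the 95% interval of the log2 fold change, -1.22 to 0.45, leaves changes of either sign possible (limma adjusted p = 0.483). Igfbp6, which prefers IGF2 as its ligand, measured 1.45, 2.42 and 2.46 FPKM in knockout livers and 4.52, 4.31 and 2.09 FPKM in control livers. Control 3 lay within the knockout range, and the log2 fold change of -0.63 ± 0.31 missed the threshold (limma adjusted p = 0.161). Without control 3 it was -0.94 and passed (adjusted p = 0.0361).

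Igfbp7, a low-affinity member secreted by vessel wall cells, measured 143, 165 and 151 FPKM in knockout livers and 131, 102 and 129.6 FPKM in control livers. Every knockout library was above every control library, though the lowest knockout value was only 1.09 times the highest control value. The log2 fold change of 0.35 ± 0.15 missed the threshold (limma adjusted p = 0.107), and its 95% interval ran from 0.02 to 0.68.

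**Figure D3:**
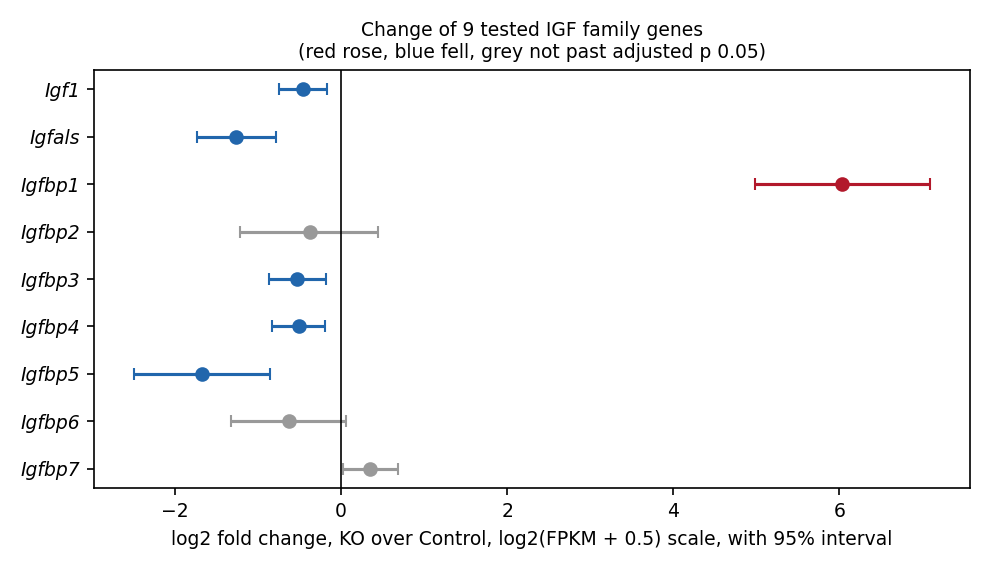
Log2 fold change of knockout over control with its 95% interval for the 9 tested genes, with genes that rose in red, genes that fell in blue and the rest in grey. Igfbp1 stands at 6.03, the 5 genes that fell lie between -0.46 and -1.67, and the intervals of Igfbp2 and Igfbp6 cross 0.

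Igf2, the fetal growth factor that is silenced in mouse liver after birth, was near the limit of measurement and was not tested. It measured 0.228, 0.255 and 0.1295 FPKM in knockout livers and 0.239, 0.248 and 0.22 FPKM in control livers. When each value was multiplied by its library's relative depth, 5 libraries gave the same value to 2 decimals and knockout 3 gave 0.5 of it. The 6 values thus lay on 2 levels, and a difference in Igf2 was not detectable at this depth.

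By mean level, the order in knockout livers was Igfbp1, Igfbp4, Igf1, Igfbp7, Igfbp2, Igfals, Igfbp3, Igfbp6, Igfbp5 and Igf2. In control livers it was Igfbp4, Igf1, Igfbp2, Igfbp7, Igfals, Igfbp1, Igfbp3, Igfbp5, Igfbp6 and Igf2. Among neighbours in the knockout order, Igfbp7 and Igfbp2 overlapped, and so did no other neighbouring pair except Igfbp6 and Igfbp5. Among neighbours in the control order, Igf1 and Igfbp2, Igfbp2 and Igfbp7, Igfbp1 and Igfbp3, and Igfbp5 and Igfbp6 overlapped.

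The binding protein genes include 2 pairs of neighbours that are transcribed towards each other. Igfbp1 (chromosome 11, 7197782 to 7202546, plus strand) and Igfbp3 (7206086 to 7213923, minus strand) are separated by 3.54 kb with no other protein-coding gene between them, by the GENCODE annotation of GRCm38 (the authors used another build). Igfbp1 rose and Igfbp3 fell. Igfbp2 and Igfbp5 on chromosome 1 are separated by 5.46 kb, and of them Igfbp5 alone passed the test. Igf1 lies on chromosome 10 (87858265 to 87937042, plus strand) and Igfals on chromosome 17 (24865997 to 24882010, plus strand) in the same annotation.

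Library knockout 2 held the highest value of the 3 knockout livers for 8 of the 10 genes (all but Igfals and Igfbp6), whereas it was the highest for 33.4% of all tested genes. It was also the highest for 10 of 15 tested hypoxia-induced genes and the lowest for 4 of them. Hypoxia-induced genes were not alone in this. Among tested genes of the amino acid stress factor ATF4, knockout 2 was the highest for Atf4, Trib3, Asns, Fgf21, Vldlr, Atf3, Psat1 and Cth. It was not the highest for Ddit3, Chac1, Sesn2 or Gdf15. A link between this library and any pathway was not tested. Control 3 held the lowest value of the control livers for 7 of the 10 genes, and was the lowest for 4308 of the 11842 tested genes. Both counts over the 10 genes include Igf2, which was not tested. Multiplied by relative depth, Igf2 was equal to 2 decimals in knockout 1, knockout 2 and all 3 control livers.

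Among receptors and signalling genes, the insulin receptor adaptors moved in opposite directions. Of 16 tested genes 3 rose (Irs2, Foxo1 and Grb14) and 1 fell (Irs1), with a median log2 fold change of 0.25. The adaptor gene Irs2 measured 6.29, 6.08 and 7.49 FPKM in knockout livers and 1.09, 0.341 and 0.303 FPKM in control livers (log2 fold change 2.79 ± 0.30, limma adjusted p = 3.16e-04). Foxo1, the transcription factor that insulin signalling inactivates, averaged 25.2 ± 7.0 FPKM in knockout livers and 11.2 ± 0.62 FPKM in control livers (limma adjusted p = 0.00354). The adaptor gene Irs1 had a log2 fold change of -0.98 ± 0.25 (limma adjusted p = 0.0183, and 0.0832 without control 1). Grb14, whose product inhibits the insulin receptor, had a log2 fold change of 0.59 ± 0.19 (limma adjusted p = 0.0437). Leaving out any 1 library but control 1 ended this call (0.39 to 0.66 on the log2 scale, adjusted p of up to 0.105), as did scaling to the same total FPKM (adjusted p = 0.0736). The receptor genes Igf1r, Igf2r and Insr, chosen after their values were seen, had log2 fold changes of 0.79, 0.21 and -0.30 that missed the threshold (limma adjusted p of 0.0787, 0.398 and 0.266).

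In growth hormone signalling 4 of 13 tested genes rose and 1 fell, with a median log2 fold change of 0.51. The list holds the receptor gene together with inhibitors, so this median gives no direction of signalling. The receptor gene Ghr, chosen after its value was seen, was the one that fell, at 143, 119.7 and 129 FPKM in knockout livers and 250.1, 227 and 239.9 FPKM in control livers (log2 fold change -0.87 ± 0.13, limma adjusted p = 0.00152). The groups stood well apart. Cish, a feedback inhibitor of STAT5 signalling, averaged 15.0 ± 2.87 FPKM in knockout livers and 3.42 ± 2.16 FPKM in control livers (log2 fold change 2.15 ± 0.40, limma adjusted p = 0.00449). Socs2, another such inhibitor, measured 9.24, 13.2 and 10.3 FPKM in knockout livers and 1.85, 9.82 and 2.47 FPKM in control livers (log2 fold change 1.44 ± 0.47, limma adjusted p = 0.0493). Control 2 lay inside the knockout range of Socs2, the control mean of 4.71 FPKM was 2.16 FPKM without it, and leaving out any 1 of the other 5 libraries ended the call (1.03 to 1.55 on the log2 scale, adjusted p of 0.0903 to 0.16). The phosphatase genes Ptpn6 and Ptpn1 rose by 1.13 ± 0.21 and 0.88 ± 0.15 on the log2 scale (limma adjusted p = 0.00454 and 0.00287). Ptpn6 is abundant in leukocytes, whose markers rose as given below. Their part in the rise of Ptpn6 was not tested.

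The proteases that cleave binding proteins were mostly unmeasurable or did not pass the test. The PAPP-A genes Pappa and Pappa2, chosen after their values were seen, were at or below 0.046 FPKM in every library. Stc2, listed with the inhibitors and also chosen after its values were seen, was too scarce for the test. It measured 0.249, 1.11 and 0.564 FPKM in knockout livers and 0 in every control liver. Of 7 tested proteases and inhibitors, Ctsd and Plau rose, with log2 fold changes of 0.44 ± 0.13 and 1.11 ± 0.33 (limma adjusted p = 0.0388 and 0.033), and the median was 0.06. Neither was called without knockout 2, knockout 3, control 1 or control 2 in turn, and Ctsd was not called without control 3. Of 6 low-affinity relatives 1 rose (median 0.36), the matricellular gene Cyr61, with a log2 fold change of 0.72 ± 0.21 (limma adjusted p = 0.0318, not called when any 1 library but control 1 was left out, with adjusted p of up to 0.117). The most abundant relative, Ctgf, averaged 10.2 ± 0.83 FPKM in knockout livers and 9.97 ± 2.99 FPKM in control livers. Wisp2, another relative, had a log2 fold change of 0.57 ± 0.48 that missed the threshold (limma adjusted p = 0.415), and 1 relative was called lower without control 1. Among 9 tested imprinted and fetal growth genes, the kind of gene to which Igf2 belongs, 1 rose (median 0.37), the imprinted gene Mest, at 6.71, 8.97 and 6.44 FPKM in knockout livers and 0.625, 2.12 and 3.16 FPKM in control livers (log2 fold change 1.82 ± 0.39, limma adjusted p = 0.00826). Cdkn1c, an imprinted inhibitor of cell division, had a log2 fold change of -0.79 ± 0.33 that missed the threshold (limma adjusted p = 0.107), and was called lower without control 2 (-1.19, adjusted p = 0.0136). The imprinted gene Sgce had a log2 fold change of 0.51 ± 0.38 (limma adjusted p = 0.36). H19, the neighbour of Igf2, also chosen after its values were seen, was at or below 0.638 FPKM in every library.

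Genes that share known inducers with Igfbp1 did not all move with it, and which inducer acted on Igfbp1 was not tested. Of 15 tested hypoxia-induced genes 14 rose and Pdk1, chosen after its value was seen, missed the threshold (log2 fold change 0.37, limma adjusted p = 0.215), with a median of 1.90. Ankrd37 measured 23.9, 13.6 and 15.6 FPKM in knockout livers and 0.576, 0.599 and 0 FPKM in control livers (log2 fold change 4.4 ± 0.34, limma adjusted p = 7.55e-05). The vasodilator peptide gene Adm averaged 20.9 ± 6.71 FPKM in knockout livers and 2.94 ± 0.86 FPKM in control livers (limma adjusted p = 2.25e-04). The collagen prolyl hydroxylase gene P4ha2 and the stress gene Ndrg1 had log2 fold changes of 2.15 ± 0.31 and 2.08 ± 0.36 (limma adjusted p = 0.00131 and 0.00296), and the knockout mean of Ndrg1, 36.3 FPKM, was 23.5 FPKM without knockout 2.

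Of 12 targets of insulin and FOXO1 2 rose and 3 fell, with a median of -0.18. Cited2, a transcriptional coregulator, averaged 106 ± 55.5 FPKM in knockout livers and 10.3 ± 0.52 FPKM in control livers (log2 fold change 3.18 ± 0.29, limma adjusted p = 1.72e-04). The gluconeogenic enzyme genes G6pc and Pck1, which insulin represses as it does Igfbp1, had log2 fold changes of -2.28 ± 0.34 and -1.04 ± 0.23 (limma adjusted p = 0.00155 and 0.0101). Klf15, a regulator of amino acid catabolism, fell by 1.25 on the log2 scale (limma adjusted p = 0.00204). The pseudokinase gene Trib1, chosen after its value was seen, had a log2 fold change of 0.71 (limma adjusted p = 0.02, and up to 0.074 without 1 library). G6pc and Pck1 thus fell in the livers in which Igfbp1 rose, while Cited2 and Trib1 of the same list rose. The part of insulin or FOXO1 in the rise of Igfbp1 was not tested. The number of these targets called higher was 1 without knockout 3, control 1 or control 3.

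Of 12 tested genes of the amino acid stress factor ATF4, its targets and the Atf4 gene itself, 5 rose and 1 fell (median 0.64). Atf3 measured 3.58, 9.97 and 3.04 FPKM in knockout livers and 0.6997, 0.968 and 0 FPKM in control livers (log2 fold change 2.47 ± 0.50, limma adjusted p = 0.00624), and the serine synthesis gene Psat1 had a log2 fold change of 1.82 ± 0.29 (limma adjusted p = 0.00211). Asns and Vldlr rose by 1.41 and 1.16 on the log2 scale (limma adjusted p = 0.0426 and 0.0403), though Asns lost its call without knockout 1, knockout 2, control 1 or control 2, and Vldlr without any 1 library other than knockout 3. Gdf15, which rose, and Cth, which fell, were chosen after their values were seen. The number higher was 3 without knockout 1, knockout 2 or control 1 and 2 without control 2. Cth was not called without knockout 1, control 1 or control 2, and 2 genes were lower without knockout 3. Of 11 tested glucocorticoid genes, targets together with the receptor gene Nr3c1, 5 rose and 2 fell (median 0.51). The metallothionein genes Mt1 and Mt2 had log2 fold changes of 3.58 ± 0.46 and 4.13 ± 0.57, the phosphatase gene Dusp1 had 0.95 ± 0.22 (not called without control 2, adjusted p = 0.0541), and the tryptophan dioxygenase gene Tdo2 had -1.66 ± 0.15 (limma adjusted p = 7.58e-04, 0.00105, 0.012 and 1.75e-04). The number of these genes that were higher was 3 without control 2, and the number lower was 1 without any 1 library but knockout 1. Fkbp5, Nr3c1 and Tsc22d3, chosen after their values were seen, were the other 3 called, Tsc22d3 as lower, a call that ended when any 1 library but knockout 1 was left out.

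**Figure D4:**
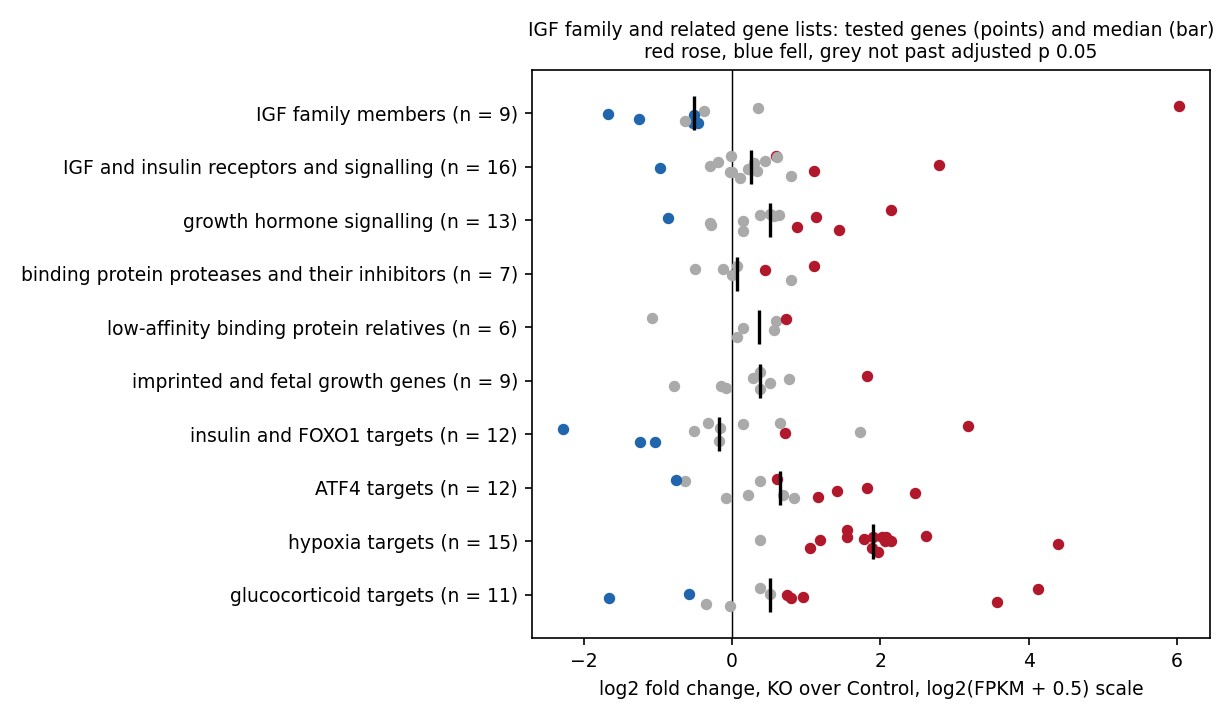
Log2 fold change of knockout over control for the tested genes of the IGF family and of 9 related lists, with a bar at each median, genes that rose in red, genes that fell in blue and the rest in grey. The hypoxia list has a median of 1.90 and the IGF family one of -0.51, with Igfbp1 alone at the far right of its row.

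Markers of other liver cells moved with the groups, and their part in the changes of the IGF family was not tested. Summed over 9 markers, sinusoidal endothelial genes came to 34.6 to 36.7 FPKM in knockout livers and 161 to 238 FPKM in control livers, 8 of 9 fell, and Clec4g was at 0 in knockout 2 and 3. Pan-endothelial markers summed to 53.3 to 62.5 FPKM in knockout livers and 67.6 to 107 FPKM in control livers, with 5 of 9 lower. Without control 3, which held the 107 FPKM, 2 pan-endothelial markers were called higher and 4 lower, and 1 sinusoidal marker was called higher and 7 lower. Stellate cell and fibroblast markers, cells that can express Igfbp5, Igfbp6 and Igfbp7, summed to 385 to 482 FPKM in knockout livers and 179 to 234 FPKM in control livers, with 8 of 11 higher. Igfbp5 fell where these markers rose and where 8 of 9 sinusoidal and 5 of 9 pan-endothelial markers fell. Its relation to any of these cells was not tested. Mesothelial markers summed to 3.96 to 5.84 FPKM in knockout livers and 8.73 to 14.8 FPKM in control livers, with 1 of 5 lower (2 without knockout 2).

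All 9 neutrophil markers rose, with sums of 1701 to 1791 FPKM in knockout livers and 34.8 to 73.7 FPKM in control livers. Monocyte markers rose in 5 of 6 cases, with sums of 234 to 260.5 FPKM in knockout livers and 26.2 to 30.1 FPKM in control livers. Kupffer cell markers rose in 4 of 7 (2 without control 2 and 6 without control 3), at 966 to 1134 FPKM in knockout livers and 442 to 934.5 FPKM in control livers. Hepatocyte markers showed no common direction, with 2 of 9 higher (Trf and Fgb) and 3 lower (Ttr, Ass1 and Hnf4a). Ttr and Trf kept their calls without any 1 library, with log2 fold changes of -1.24 and 1.19 (limma adjusted p = 0.00198 and 0.00506). Without knockout 1, knockout 3, control 1 or control 2 in turn, 1 marker was higher and 1 lower. Without knockout 2 or control 3, 1 marker was higher. Their sums were 43727 to 51864 FPKM in knockout livers and 32548 to 38249 FPKM in control livers. Trf, the transferrin gene, carried this gap, and the 8 other markers summed to 20396 to 24178 FPKM in knockout livers and 19680 to 26753 FPKM in control livers, ranges that overlapped. Cholangiocyte markers were called once in each direction among 5 tested, with Cftr at 0 in every control library. The lower one, the keratin gene Krt19, kept its call only without knockout 2 when 1 library was left out, and without control 3 the list had 2 higher and 0 lower. The 4 adipocyte markers were at 0 in all knockout livers and summed to 0.249 to 0.583 FPKM in control livers. Exocrine pancreas markers summed to 6.75 to 11.5 FPKM in knockout livers and 15.6 to 25.9 FPKM in control livers, with 1 higher and 1 lower of 2 tested.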

How the data were processed

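Whole-liver RNA was sequenced as paired reads on an Illumina instrument after TruSeq preparation, per the labels' protocols. The submitters' processing notes name Trimmomatic 0.33, TopHat2 2.1.0, Cuffdiff 2.2.1, Cuffnorm 2.2.1 and the build mm9. The authors deposited FPKM per gene and library, so fragment counts and absolute depth are unknown. Steps of the low FPKM values put the library scaling, called relative depth here, at 0.921 to 1.085 of control 1. The labels call the libraries triplicates and no more, and p-values therefore reflect variation among these libraries, which may be technical.

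limma 3.58.1 in R 4.3.3 (trended moderation, equal weights) was fitted to log2(FPKM + 0.5) of 11842 genes that averaged 0.5 FPKM or more and p-values were adjusted by Benjamini-Hochberg. Alb was left out. Single summed values and ratios were compared by exact two-sided permutation, with a smallest p of 0.1. Another 11 settings with all 6 libraries, and leaving out each library, were tried.

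The members and the 9 pathway and 11 marker lists were chosen with earlier results of these data known. The genes named by rule were all members, up to 4 called genes per pathway list with the largest absolute log2 fold change (the 2 most abundant where fewer than 2 were called), and the 3 genes nearest in profile to Igfbp1 and to Igf1. Some other genes, such as Ghr and Pappa, were named after their values were seen.

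Promoter windows of 300 bases came from RefSeq (GRCm38.p6), in which all 10 genes matched. The motifs searched on both strands were the TATA box (TATAAA), the FOXO site (GTAAACA), the core of the insulin response element (CAAAACA), the cAMP response element (TGACGTCA), the ATF4 composite site (TGATGNAA), the hypoxia response core (ACGTG), the C/EBP site (TTGCNNAA), the STAT5 site (TTCNNNGAA), the HNF1 site, the glucocorticoid response element and a loose NF-kB pattern. Matches may overlap.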

Additional observations from a re-analysis of the deposited data

How the results depend on the processing

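Over the 10 genes of the IGF family, all 153 combinations of a tested gene and another setting kept the direction of change, and 1 gene rose in each setting. The number that fell, 5, was 2 without a mean-variance trend, 2 with the replicate block, 4 with libraries scaled to the same upper quartile, and 2 to 5 when each library was left out in turn (2 without knockout 1, knockout 3, control 1 or control 2). Igf1, Igfbp3 and Igfbp4 were the genes that lost their calls without the trend (adjusted p of 0.0708, 0.0538 and 0.054) and with the block (0.0631, 0.0514 and 0.0663), and the cause was not tested. Over all tested genes, the deviations of same-numbered libraries correlated at -0.01, 0 and 0.002. These values cannot exclude a pairing that affects only some genes, and the labels do not state one. The block gave 1575 genes higher and 1385 lower over all genes, and differences in composition taken within replicate numbers had an exact sign-flip p of 0.25, the smallest possible. Over all genes, 1534 were lower, and 935 to 1484 without 1 library (935 without control 2, 990 without control 1). Scaling to the same total FPKM gave 1354 genes higher and 2076 lower, with a median of -0.1047 on the log2 scale, and the share of calls that were higher was 39.5%, against 52.1% as deposited. Depth limits Igf2 and genes under 0.5 FPKM. The sum of hepatocyte markers without Trf was an alternative chosen after seeing the data.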
